A study of Mus musculus with 36 samples.

Results

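Distal H2A.Z peaks that carry H3K4me3 are places where the histone variant H2A.Z and a promoter-type histone mark lie together away from an annotated coding start. They were taken from the authors' deposited table of consensus H2A.Z peaks of the mouse hippocampus (mm10) as the peaks over 1000 bp from the nearest coding-gene start, overlapping a region of H3K4me3 in any way, and outside regions of low mappability. This rule gave 3138 of 20213 peaks (15.5%). A further 54 peaks met the other conditions but lay in low-mappability regions and were left out. The rule used position and H3K4me3, not H2A.Z levels or their differences between groups. The consensus peaks themselves were called on H2A.Z, however, and a peak could be listed without a call in every group. Levels and differences are therefore not independent of how the peaks came to be listed.

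H2A.Z replaces the ordinary histone H2A in nucleosomes that flank transcription start sites and in nucleosomes at enhancers, and it is loaded and removed by dedicated remodelling complexes. Trimethylation of lysine 4 on histone H3 (H3K4me3) marks active and poised promoters, whereas monomethylation of the same residue (H3K4me1) is typical of enhancers and of promoter flanks. Acetylation of lysine 27 (H3K27ac) accompanies active promoters and enhancers, and trimethylation of lysine 27 (H3K27me3) is laid down by Polycomb complexes at silent or poised genes. A peak of H3K4me3 far from a coding start can sit at an alternative promoter of the same gene, at the start of a noncoding RNA, or inside a broad promoter domain.

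The study compared C57BL/6J mice of 15.5 months (old) and 2.5 months (young), each either fear conditioned or naive, which gave 4 groups: old conditioned, old naive, young conditioned and young naive. Conditioning was a session of 5 min in which the mice received 3 shocks of 0.5 mA for 2 s each, and hippocampi were collected from brains frozen 30 min later. Each group had 3 H2A.Z immunoprecipitated libraries and 3 RNA libraries, 12 of each kind in all, and the 12 input libraries were not analysed here. The labels do not say that the libraries of a group came from separate animals, so the p-values reflect how far these particular libraries differ from each other, which may be technical. The tissue is whole hippocampus, in which fewer cells of a type and less signal per cell cannot be told apart.

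The authors' deposited table gives 1 log2 mean level per peak and group and no value per library, so levels are printed without an error and without a test. Differences below are conditioned minus naive, or old minus young, on the table's log2 scale. Their p-values and false discovery rates (FDR) are the authors', and a peak is called at an FDR under 0.05. In the table, groups written N were read as naive and groups written T as conditioned by exclusion. In comparisons with an old group, the table's difference departs by a constant from the difference of its levels, so printed differences are not the subtraction of printed levels there, and levels are compared only across peaks within a group.

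RefSeq transcription starts lay inside 562 of the 3035 peaks that could be matched, and start sequences describe that minority alone. The 6 windows below are examples picked on CpG content and on H2A.Z values, so they cannot show how the 2 relate. They are 3 that are rich in CpG dinucleotides at peaks of high H2A.Z level (Strbp, Dleu2, Nr4a3), 1 at a peak called lower after training at both ages (Zfand6), and 2 with few CpGs at peaks among the largest falls (E2f2, Gm32703). Each runs from 250 bases before to 50 bases after a RefSeq start on GRCm38.p6, is written 5′ to 3′ on the strand of the transcript, and has every CG dinucleotide in capitals. Strbp codes for an RNA-binding protein, and its window is chr2:37703296-37703595, minus strand. Dleu2 is a long noncoding RNA, and its window is chr14:61682324-61682623, minus strand. Nr4a3 codes for an orphan nuclear receptor of the early activity response, and its window is chr4:48045055-48045354, plus strand. Zfand6 codes for a zinc finger protein, and its window is chr7:84689908-84690207, minus strand. E2f2 codes for a cell-cycle transcription factor, and its window is chr4:136180532-136180831, plus strand. Gm32703 is a long noncoding RNA that starts inside Pde4d, a cyclic AMP phosphodiesterase gene, and its window is chr13:109440962-109441261, minus strand.
Strbp: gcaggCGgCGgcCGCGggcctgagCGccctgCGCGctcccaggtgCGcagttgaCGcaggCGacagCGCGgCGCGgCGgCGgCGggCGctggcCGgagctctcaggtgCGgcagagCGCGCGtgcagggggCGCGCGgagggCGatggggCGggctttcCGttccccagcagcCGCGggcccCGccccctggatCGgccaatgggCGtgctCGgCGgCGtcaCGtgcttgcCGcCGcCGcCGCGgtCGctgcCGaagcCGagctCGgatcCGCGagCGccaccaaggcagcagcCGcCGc
Dleu2: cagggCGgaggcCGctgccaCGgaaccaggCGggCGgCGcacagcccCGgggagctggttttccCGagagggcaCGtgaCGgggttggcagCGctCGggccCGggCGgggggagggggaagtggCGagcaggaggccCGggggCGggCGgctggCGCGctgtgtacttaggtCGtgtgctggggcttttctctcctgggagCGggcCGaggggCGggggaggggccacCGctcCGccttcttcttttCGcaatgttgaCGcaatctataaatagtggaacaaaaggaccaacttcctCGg
Nr4a3: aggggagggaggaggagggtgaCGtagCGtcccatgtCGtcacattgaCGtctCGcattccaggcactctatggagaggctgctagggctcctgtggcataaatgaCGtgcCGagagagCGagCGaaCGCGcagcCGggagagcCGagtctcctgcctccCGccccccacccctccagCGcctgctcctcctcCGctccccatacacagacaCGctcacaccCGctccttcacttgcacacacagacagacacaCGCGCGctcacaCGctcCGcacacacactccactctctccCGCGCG
Zfand6: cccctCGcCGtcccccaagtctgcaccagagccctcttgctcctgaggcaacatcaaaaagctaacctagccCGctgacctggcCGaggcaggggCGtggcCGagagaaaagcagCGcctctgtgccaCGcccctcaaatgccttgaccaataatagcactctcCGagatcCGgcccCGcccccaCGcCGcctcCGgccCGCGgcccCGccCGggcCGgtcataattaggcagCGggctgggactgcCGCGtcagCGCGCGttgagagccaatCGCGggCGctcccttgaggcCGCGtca
E2f2: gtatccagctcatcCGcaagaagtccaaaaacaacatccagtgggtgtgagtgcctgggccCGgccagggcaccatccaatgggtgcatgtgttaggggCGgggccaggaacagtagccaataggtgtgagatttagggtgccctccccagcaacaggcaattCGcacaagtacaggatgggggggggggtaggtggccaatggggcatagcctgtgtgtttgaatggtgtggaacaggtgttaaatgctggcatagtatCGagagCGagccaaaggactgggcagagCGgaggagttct
Gm32703: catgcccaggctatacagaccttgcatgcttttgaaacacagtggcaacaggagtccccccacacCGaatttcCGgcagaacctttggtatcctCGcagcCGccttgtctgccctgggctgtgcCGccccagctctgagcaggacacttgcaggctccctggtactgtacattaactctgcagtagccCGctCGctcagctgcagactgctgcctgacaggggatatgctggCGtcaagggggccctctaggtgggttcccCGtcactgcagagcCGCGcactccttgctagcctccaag
The Strbp window held 52 CG dinucleotides and the Dleu2, Nr4a3 and Zfand6 windows held 29, 26 and 30, against 7 in the E2f2 window and 11 in the Gm32703 window. The peak over the Strbp window lay 55890 bp upstream of the coding start that the table lists for Strbp, although RefSeq gives a start of the same gene 170 bp from the peak's centre. The Zfand6 peak, likewise, was listed 10586 bp upstream of the coding start and lay 20 bp from a RefSeq start of Zfand6. The Dleu2 peak was assigned to Kcnrg, a potassium channel regulator gene, 74632 bp downstream of its start, and lay 285 bp from the start of Dleu2.

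Starts in the RefSeq table used here, which does not hold every coding gene, lay at a minority of the class. Of the 3035 peaks on chromosomes that the table of RefSeq starts covers (the 103 on chromosome 18 could not be matched), 664 (21.9%) had a start within 1 kb of their centre, and in 562 of these the start lay inside the peak. The share was 82.6% for promoter peaks with H3K4me3 (8992 of 10886) and 5.95% for distal peaks without H3K4me3 (264 of 4435). Promoter peaks lie within 1 kb of a listed coding start by definition, and peaks of the class do not. The contrast between the class and promoter peaks is therefore largely set by the rule. Among the 664, the nearest start belonged to a long noncoding RNA in 331 and to a coding gene in 333. It belonged to the gene the authors' table lists as nearest in 216, and to another gene in 448, of which 117 were coding genes. The other 2371 peaks were over 1 kb from every start in the RefSeq table. For the Egr3 peak listed 2172 bp upstream of its coding start, the nearest start in that table was 519855 bp away. The RefSeq table thus lacks some coding starts, and the counts of peaks near a start are a lower bound. In the authors' deposited table itself, 213 of the 3138 peaks (6.79%) lay within 1 kb of the start of a transcript once noncoding transcripts were counted.

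In base composition, the windows at these starts stood between those at promoter peaks and RefSeq starts in general. A window was counted as CpG-rich at a GC content of at least 50% and a ratio of observed to expected CpG of at least 0.6. Of the 658 different starts near the class, 389 (59.1%) were CpG-rich, beside 78.8% of 8919 starts at promoter peaks with H3K4me3, 36.2% of 260 starts at distal peaks without H3K4me3, and 33.5% of all 32851 RefSeq starts. Coding starts of the class were CpG-rich in 66.2% (219 of 331) and long noncoding starts in 52.0% (170 of 327). By chromatin state the share was 73.3% at peaks with both H3K27ac and H3K27me3 and 45.4% at peaks with neither.

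Motifs were searched as exact letters on both strands of the 300 bases. The GC box GGGCGG, which binds Sp factors, was present in 62.3% of the windows of the class and in 35.7% of all RefSeq windows. TATAAA, the core of the TATA box, was present in 6.99% against 13.6% of all windows. CCAAT was found in 32.4% against 37.4%. The cyclic AMP response element TGACGTCA was in 1.98% of the windows (13 of 658), against 1.79% of all, and the AP-1 site TGANTCA was in 4.56% (30 of 658), against 7.81% of all. The GC box and the cyclic AMP response element each contain a CG dinucleotide, so their shares are not independent of CpG content, and no motif lies inside another. All 6 printed windows held GGGCGG, that of Dleu2 also held TATAAA, and those of Strbp, Zfand6 and E2f2 also held CCAAT.

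The class carried both enhancer-type and promoter-type marks. H3K4me1 overlapped 2923 of 3138 peaks (93.1%), beside 87.6% of the 11181 promoter peaks with H3K4me3 and 41.4% of the 4559 distal peaks without H3K4me3. H3K27ac overlapped 1551 (49.4%), beside 69.0% of promoter peaks. H3K27me3 overlapped 1624 (51.8%), beside 34.6% of promoter peaks and 17.3% of distal peaks without H3K4me3. The histone-mark regions come with the authors' table, and the sources used here do not say in which tissue they were mapped, so the overlap is not one measured in these mice.

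**Figure D1:**
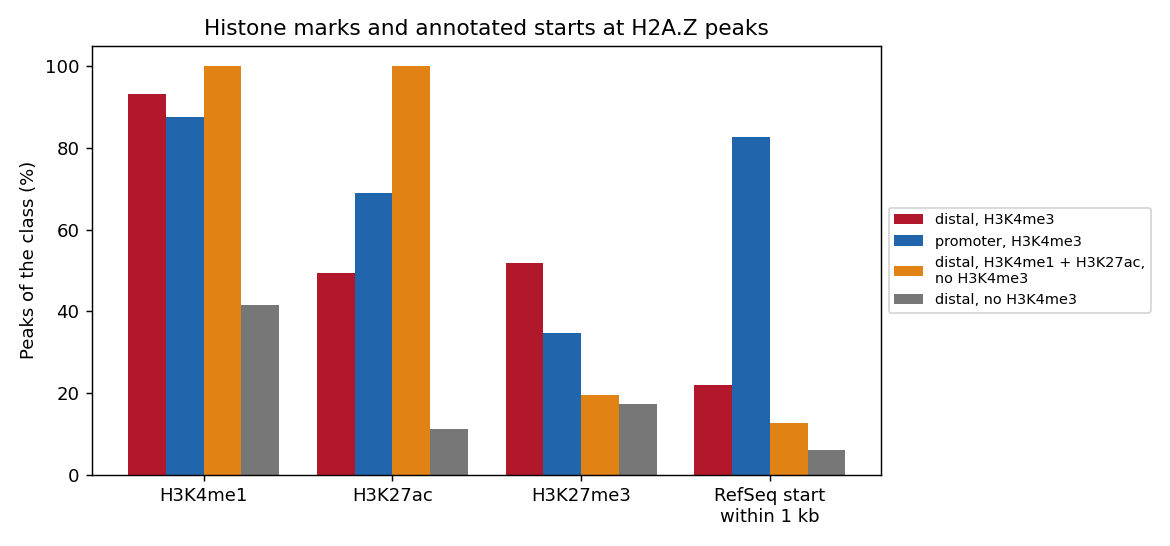
Share of peaks (%) that overlap H3K4me1, H3K27ac or H3K27me3 regions or have a RefSeq start within 1 kb, for 4 classes of H2A.Z peaks (bars). Distal peaks with H3K4me3 reach 93.1% for H3K4me1 and 51.8% for H3K27me3, and 21.9% of them have a RefSeq start within 1 kb, against 82.6% of promoter peaks. The class with H3K4me1 and H3K27ac is at 100% for those marks by its definition. Promoter peaks lie within 1 kb of a listed coding start by definition, which largely sets their share with a RefSeq start.

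The 2 marks on lysine 27 split the class into 4 states. H3K27ac without H3K27me3 was found at 996 peaks, both marks at 555, H3K27me3 without H3K27ac at 1069 and neither at 518. A RefSeq start lay within 1 kb of 27.8% of the peaks with H3K27ac alone and of 16.7% of those with H3K27me3 alone. The peaks most often had 1 coding gene to themselves: 2462 genes were nearest to at least 1 peak, 1976 of them to just 1, and 126 to 3 or more. Bcor, coding for a corepressor that works in a Polycomb complex, had the largest number with 10, and Sox1, a transcription factor gene of neural precursors, and Cstad had 6 each.

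By position, the class was mostly intergenic or exonic. The authors' deposited table places 1469 peaks (46.8%) between genes, 794 in exons, 454 in introns and 200 in exons of noncoding RNAs. The exonic peaks overlapped H3K27me3 in 70.0% and H3K27ac in 30.9%, whereas the intronic peaks overlapped H3K27me3 in 44.7% and H3K27ac in 59.0%. Peaks in noncoding exons had a RefSeq start within 1 kb in 62.1%. Median distance to the coding start was 16606 bp, and 54 peaks shared their H3K4me3 region with a promoter peak. The peaks lay a median of 35264.5 bp from the nearest promoter peak with H3K4me3, and 139 lay closer than 3 kb. In 21 peaks the span of the peak covered the coding start although its centre was over 1000 bp away. The Junb peak is one of them (chr8:84976057-84979075), so that for Junb, an AP-1 transcription factor gene, the peak includes the annotated promoter.

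Values on both sides of the distance threshold are given as a description. Just inside it, the peak in Grin2b, an NMDA receptor subunit gene, was 1001 bp from the start, and the peaks of Slc7a10 and Slc37a4 were 1004 and 1005 bp upstream. Their mean levels were 5.91, 5.42 and 7.15. Just outside it, peaks of Hapln4 (998 bp), Dennd4b (995 bp) and Msi1 (994 bp) had mean levels of 6.40, 7.36 and 4.66. Slc37a4 had a RefSeq start 71 bp from the peak's centre.

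H2A.Z levels of the class stood between those of promoters and of other distal peaks in every group. In old conditioned mice the median level was 5.34 on the log2 scale, beside 6.38 at promoter peaks with H3K4me3, 4.48 at distal peaks with H3K4me1 and H3K27ac but no H3K4me3, and 3.84 at all distal peaks without H3K4me3, which include them. In old naive mice it was 6.57, beside 7.63, 5.34 and 4.14 in those classes. In young conditioned mice it was 5.16, beside 6.19, 4.03 and 3.61. In young naive mice it was 5.98, beside 6.83, 4.94 and 3.89. The order of the 4 classes was the same in each group, but no test was made of it, since peaks are not replicates. Peaks of the class were also narrower than promoter peaks, with a median of 797.5 bp against 999 bp. The median was 578 bp at distal peaks with H3K4me1 and H3K27ac but no H3K4me3 and 668 bp at all distal peaks without H3K4me3. Whether the levels are scaled to peak width is not given, and the part of width in the order of levels was not tested. In all 3 libraries of a group, the authors called 38.8% of the class in old conditioned, 50.7% in old naive, 42.1% in young conditioned and 50.8% in young naive mice. Over all peaks the shares were 47.4%, 53.9%, 51.3% and 49.9% in that order.

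**Figure D2:**
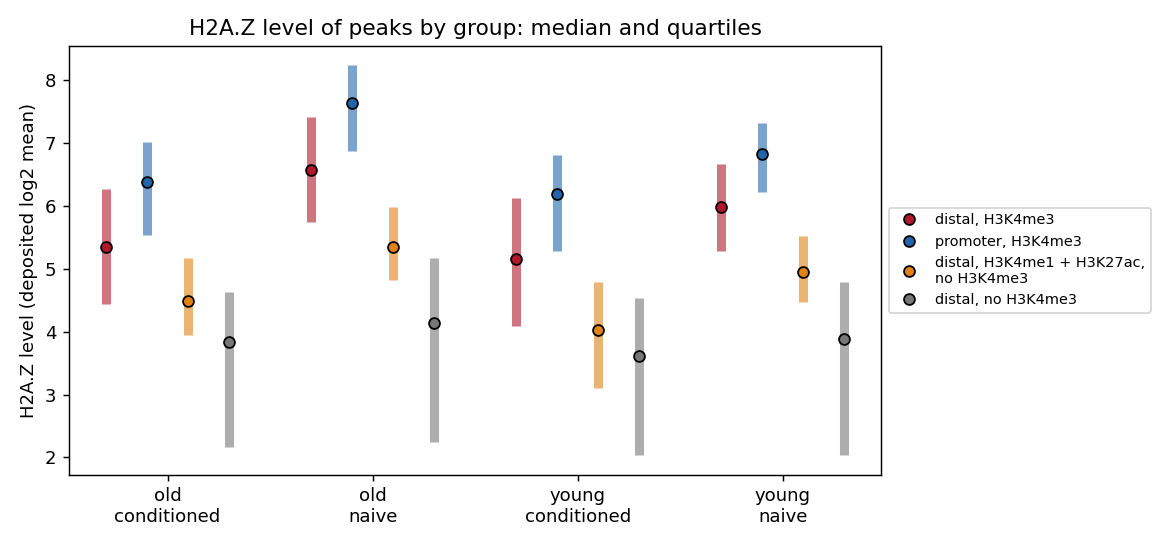
H2A.Z level (log2 group mean from the authors' deposited table) in 4 classes of peaks and 4 groups, with points at the median and bars over the middle quartiles. Distal peaks with H3K4me3 lie below promoter peaks and above the other distal peaks in every group, for example at a median of 5.34, against 6.38 at promoters, in old conditioned mice.

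Level differed with chromatin state. Peaks with H3K27ac and H3K27me3 together had a median of the mean level over groups of 6.29, those with H3K27ac alone 5.85, those with H3K27me3 alone 5.70 and those with neither 5.15. When all 20213 peaks were ranked by mean level and cut into 4 bins of equal size, 587 peaks of the class fell in bin 1 (the lowest), 1289 in bin 2, 770 in bin 3 and 492 in bin 4. From bin 1 to bin 4, H3K27ac overlapped 42.9%, 43.0%, 50.8% and 72.0% of them, and a RefSeq start lay within 1 kb of 13.0%, 18.4%, 28.04% and 31.7%.

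The highest mean level, 8.92, was at Nsd1, a histone H3 lysine 36 methyltransferase gene (chr13:55209843-55212906, 1593 bp inside the gene), with 9.07 in old conditioned, 9.65 in old naive, 8.44 in young conditioned and 8.51 in young naive mice. That peak is 3064 bp wide and is placed by the authors in a 5′ untranslated region. Its distance is taken from its centre, so its edge lies nearer the annotated start than 1593 bp. The other 9 of the top 10 were, in order, the Dleu2 peak (8.56), a peak 60168 bp upstream of Arid1a, a subunit gene of SWI/SNF remodelling complexes (8.56), a peak at Nr3c2, the mineralocorticoid receptor gene (8.54), Chadl (8.53), Csf2ra (8.51), Junb (8.50), Whsc1, another lysine 36 methyltransferase gene (8.43), Phf21b (8.41) and Lphn2, a latrophilin gene (8.36). The Nr3c2 peak was 589 bp from the start of the noncoding Gm10649, and the Phf21b peak was 163 bp from a RefSeq start of Phf21b. All 10 were called as peaks in all 3 libraries of the old conditioned, old naive and young conditioned groups. In young naive mice 9 were, and the Whsc1 peak was called in 2 libraries. After training, the Whsc1 peak had the smallest FDR among the 10 in old mice, standing at 8.13 in old conditioned and 9.53 in old naive animals (-1.18, authors' FDR 0.00567). The Dleu2, Arid1a, Phf21b and Lphn2 peaks were also called lower in old mice (FDR 0.0360, 0.0333, 0.0248 and 0.0344), and 0 of the 10 were called in young mice. In bin 4 of the mean level, from which these peaks come, 30.3% of the class were called lower in old and 4.88% in young mice, beside 10.6% and 13.2% of all peaks.

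H2A.Z was lower after training at both ages, and a larger part of the class passed the test in young mice. In old mice, 191 of 3138 peaks were called lower in conditioned than in naive hippocampi, or 6.09%, while 10.6% of all 20213 peaks were, and 0 of the class were called higher, against 0.0396% of all peaks. At an unadjusted p under 0.05, 720 peaks of the class (22.9%) passed in old mice, while 30.1% of all peaks did, and 1071 (34.1%) in young mice, while 26.9% of all peaks did. In young mice, 582 (18.5%) were called lower, while 13.2% of all peaks were, and 1 was called higher, against 0.109% of all peaks. The median difference of the class was -0.99 in old and -0.72 in young mice, beside -0.93 and -0.57 over all peaks. The difference was negative in 3018 peaks of the class in old and in 2771 in young mice. The size of the old median depends on the table's scale, which carries the offset named above. The share called in the class was thus below that of all peaks in old mice and above it in young mice, and no test was made of either contrast or of the difference between ages.

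Promoter peaks with H3K4me3 had the opposite order of shares. They were called lower in 17.0% in old mice and in 14.5% in young mice, with median differences of -1.03 and -0.63. Distal peaks without H3K4me3 were called lower in 0.285% in old and 6.10% in young mice, with medians of -0.10 and 0.01.

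Calls at both ages were counted next. The training comparisons of old and of young mice share no library, and 21 peaks were called lower at both ages, which is 11.0% of the old list and 3.61% of the young list. Over all 20213 peaks 160 were (0.792%), which is 7.44% of the old list and 6.02% of the young list. In naive mice of the other age, whose libraries enter neither group of the comparison, the peaks called in old mice had a median level of 7.40, beside 5.98 over the class, and the peaks called in young mice one of 6.26, beside 6.57 over the class. A further description is direction: 2724 peaks (86.8%) had a negative difference at both ages, as did 77.4% of all peaks. The peaks called in young mice had a median difference of -2.32 in young and -1.43 in old mice. The peaks called in old mice had a median difference of -1.27 in old and -0.60 in young mice.

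**Figure D3:**
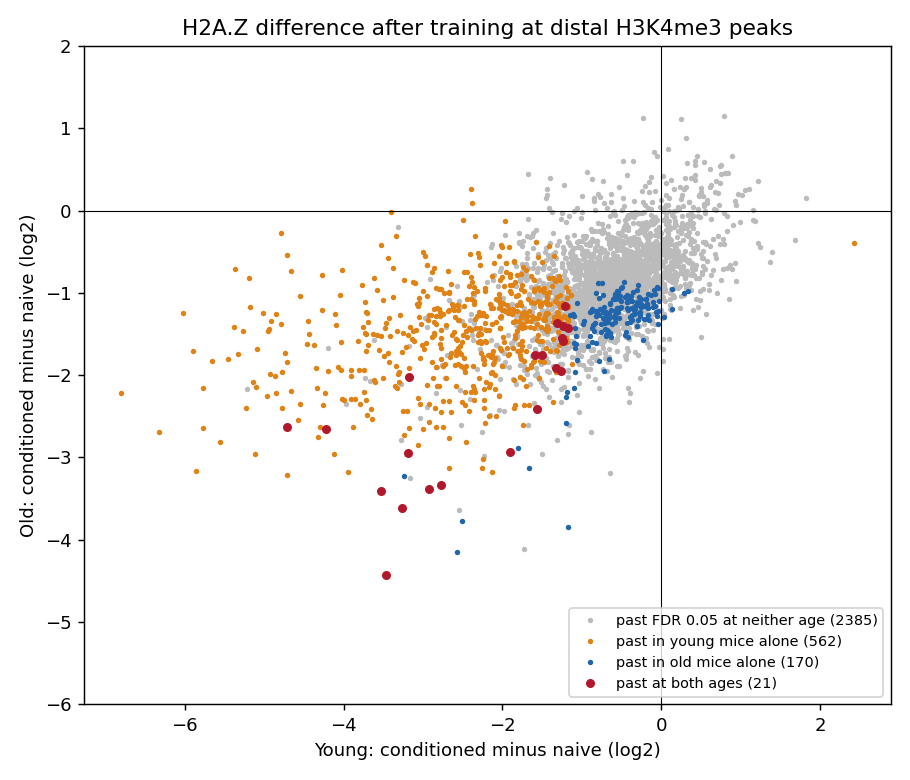
Each point is 1 of the 3138 distal peaks with H3K4me3, with the log2 difference between conditioned and naive mice in young animals on the x axis and in old animals on the y axis. Most points lie below 0 on both axes (2724 peaks), and the 21 peaks past the FDR threshold at both ages are drawn larger.

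The share called varied with level, differently at the 2 ages. The bins above use the mean of the 4 groups, which holds the conditioned levels, so a peak that fell far is placed lower by its own fall. All peaks were therefore also cut into 4 bins by the naive level at the other age, an alternative chosen after seeing the data. From bin 1 to bin 4 of that level, 0.629%, 0.566%, 4.75% and 30.6% of the class were called lower in old mice, and 16.3%, 26.2%, 13.9% and 5.78% in young mice. Promoter peaks with H3K4me3 had shares of 0.680%, 1.79%, 7.13% and 36.2% in old mice, and 19.3%, 28.5%, 16.3% and 4.41% in young mice. In old mice the share was highest in bin 4, and in young mice it was highest in bin 2 and lowest in bin 4, in both classes; no test was made of these shares. Median differences of the class were -0.73, -1.03, -1.04 and -1.01 in old mice and -0.888, -1.0003, -0.610 and -0.453 in young mice. With bins of the mean level, 1.36%, 0.776%, 3.12% and 30.3% of the class were called lower in old mice, and 36.5%, 21.0%, 9.48% and 4.88% in young mice. The rise of the share towards bin 1 in young mice was thus seen with bins of the mean level and not with bins of the other age's naive level. In young conditioned mice 23 peaks of the class sat at the lowest level that the table lists for that group, of which 18 were called lower, so their differences depend on that floor. In old conditioned mice 3 peaks of the class sat at the lowest level, and 0 of them were called. Of the 582 peaks called lower in young mice, 321 (55.2%) were called as a peak in 0 of the 3 young conditioned libraries and 364 in all 3 young naive ones. Of the 191 called lower in old mice, 166 were still called as peaks in all 3 old conditioned libraries and 178 in all 3 old naive ones.

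**Figure D4:**
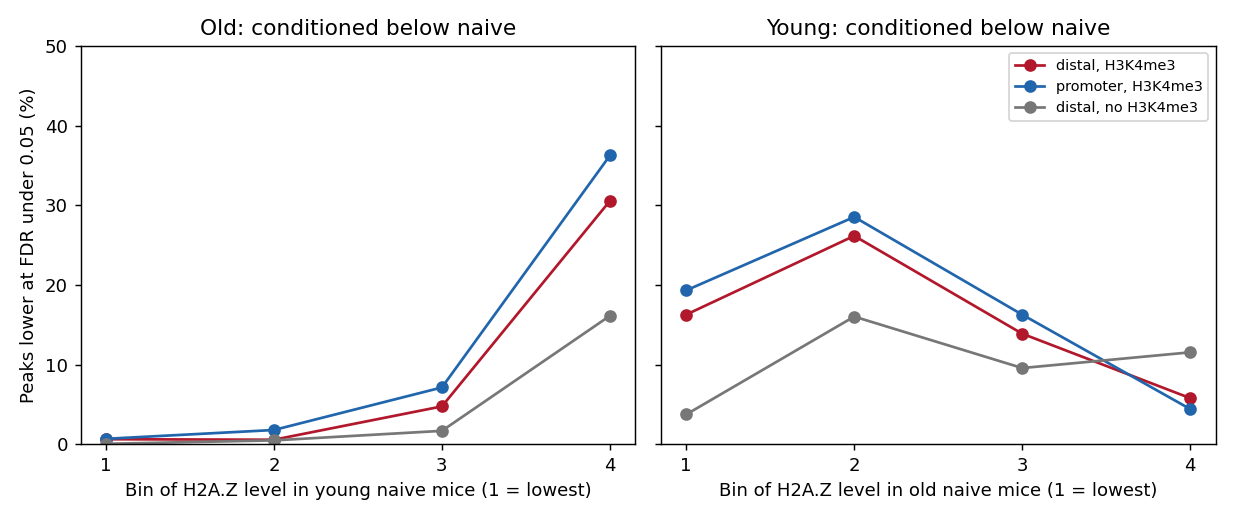
Share of peaks (%) called lower in conditioned than in naive mice at an FDR under 0.05, by bin of H2A.Z level in naive mice of the other age (4 bins of equal size over all peaks, 1 the lowest), for old mice (left) and young mice (right). In old mice the share in distal peaks with H3K4me3 is highest in bin 4 (30.6%), and in young mice it is 26.2% in bin 2 and 5.78% in bin 4.

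Chromatin state went with the share called as well. In old mice 12.1% of peaks with H3K27ac and H3K27me3 were called lower, 7.43% of those with H3K27ac alone, 3.65% with H3K27me3 alone and 2.12% with neither. In young mice the shares were 11.7%, 27.8%, 9.73% and 26.3% in that order. Level differs between the states, so the shares were also read within a bin of the naive level at the other age. In bin 4 in old mice, 37.4% of peaks with both marks, 27.6% with H3K27ac alone, 26.4% with H3K27me3 alone and 31.6% with neither were called, the last of 19 peaks. In bin 2 in young mice, 19.9%, 39.7%, 14.5% and 29.0% were called in that order. By annotated start, the median mean level was 6.16 within 1 kb of one and 5.59 farther away. Among peaks within 1 kb of a RefSeq start, 8.89% were called in old and 19.6% in young mice, and among the rest, 5.31% and 18.2%.

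Of the 5 largest falls in young mice, 4 were at peaks with H3K27ac and no H3K27me3. The peak 70412 bp upstream of Bcl9, a coactivator gene of Wnt signalling, stood at -0.14 in young conditioned and 6.67 in young naive mice, a difference of -6.81 (authors' FDR 1.32e-08). It was called in 0 young conditioned and in all 3 young naive libraries. A peak near Fcgr4, an immunoglobulin Fc receptor gene, differed by -6.32 (FDR 0.000446), one near Stmn4, a microtubule-regulating stathmin gene, by -6.02 (FDR 3.04e-08) and one near Ccdc85a by -5.90 (FDR 9.87e-08). These 3 sat at the lowest level listed for young conditioned mice, -0.38, so the sizes depend on that floor. The Bcl9 peak, and the E2f2 peak described next, stood close above it, so their sizes are bounded by it as well. The peak in E2f2 whose start sequence is printed above (chr4:136179990-136181381) stood at 0.25 in young conditioned and 6.11 in young naive mice, a difference of -5.85 (FDR 0.000133). It carried H3K27me3 and no H3K27ac, unlike the other 4. In old mice, the 5 peaks differed by -1.24 to -3.17 with authors' FDRs of 0.0947 to 0.341, none past the threshold. The 4 smallest called falls in young mice were at Mier3 (-1.13, FDR 0.0449), Cxxc4 (-1.13, FDR 0.0490), Arhgap27 (-1.17, FDR 0.0389) and Lrrc43 (-1.17, FDR 0.0397), of which Cxxc4 codes for an inhibitor of Wnt signalling.

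The 1 peak called higher in young conditioned mice lay in Gprin1, a gene for a G protein-regulated inducer of neurite outgrowth (chr13:54737435-54738518, 11693 bp inside the gene). It stood at 6.42 in young conditioned and 3.999 in young naive mice, a difference of 2.42 (authors' FDR 0.000314), and was called in 3 and 0 libraries of those groups. In old mice it stood at 5.995 in conditioned and 6.604 in naive animals and was called in all 3 libraries of both groups, with a difference of -0.39 (FDR 0.691). Of the 4 groups, the young naive one was the only one without a peak call there.

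Old mice had their largest fall at another gene. The Pde4d peak at the start of Gm32703 (chr13:109440884-109441297) stood at 0.86 in old conditioned and 5.50 in old naive mice, a difference of -4.43 (authors' FDR 0.0367). It was called in 0 of the old conditioned and 2 of the old naive libraries, and in young mice it differed by -3.47 (FDR 0.00113). A peak near Klrb1b, a natural killer cell receptor gene, differed by -4.15 in old mice (FDR 0.000457), and a peak at the start of the noncoding Gm6559, near Nfe2l3, by -3.85 (FDR 0.0202). A peak far upstream of Ccrn4l, the nocturnin gene, differed by -3.78 (FDR 0.0213) and one upstream of Ebf1, a transcription factor gene, by -3.61 (FDR 0.0258). At the other end were the smallest called falls in old mice. The Strbp peak stood at 8.09 in old conditioned and 9.23 in old naive mice, a difference of -0.93 (FDR 0.0295), while in young mice it stood at 7.97 in conditioned and 8.02 in naive animals (-0.05, FDR 0.954). The Dleu2 peak differed by -0.87 in old mice (FDR 0.0360) and by -0.47 in young mice (FDR 0.514), and the Arid1a peak by -0.88 (FDR 0.0333) and -0.80 (FDR 0.260). Peaks at Kctd15 (-0.88, FDR 0.0429) and in Notch4, a Notch receptor gene (-0.91, FDR 0.0489), completed the 5 smallest called falls in old mice.

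Among the 21 peaks called lower at both ages, chosen here after their values were seen, several lay at RefSeq starts. The Zfand6 peak stood at 6.53 in old conditioned and 8.50 in old naive mice (-1.75, authors' FDR 0.00256), and at 5.97 in young conditioned and 7.57 in young naive mice (-1.59, FDR 0.00295). The peak 147 bp from a start of Neto2, an auxiliary subunit gene of kainate receptors, differed by -1.95 in old (FDR 0.00305) and -1.27 in young mice (FDR 0.0222). The peak 195 bp from a start of Gdnf, a neurotrophic factor gene, differed by -2.02 in old (FDR 0.0402) and -3.18 in young mice (FDR 1.55e-05). Others of the 21 lay near the cell-cycle kinase genes Wee1 and Aurkb and the Notch target gene Hey1.

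Early activity-regulated genes, whose transcription neurons switch on within minutes of stimulation, had peaks of the class near most of the genes listed. Of 33 such genes, 24 were nearest to at least 1 peak of the class, with 38 peaks in all, of which 20 overlapped H3K27ac and 15 H3K27me3. For this list and those below, the background is that 1989 of the 14405 genes tested for RNA were nearest to a peak of the class. No test was made of these counts. The difference was negative in 38 of 38 peaks in old mice and in 36 of 38 in young mice, with medians of -0.98 and -0.72, beside -0.99 and -0.72 over the whole class. Called lower were 3 in old and 7 in young mice, beside 6.09% and 18.5% of the class. The list was chosen with earlier results of these data known.

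The 3 strongest peaks of the early list were not called at either age. The Junb peak stood at 8.39 in old conditioned and 9.11 in old naive mice (-0.51, authors' FDR 0.437), and at 8.12 in young conditioned and 8.36 in young naive mice (-0.24, FDR 0.764). A peak 1590 bp inside the table's Jund, another AP-1 gene, differed by -0.56 in old (FDR 0.192) and 0.23 in young mice (FDR 0.763). The Nr4a3 peak (chr4:48044509-48046848), 5569 bp upstream of the listed coding start and 373 bp from the RefSeq start printed above, differed by -1.08 in old (FDR 0.0540) and -0.94 in young mice (FDR 0.115). A second Nr4a3 peak, 8059 bp upstream, differed by -0.68 in old (FDR 0.182) and -0.19 in young mice (FDR 0.803).

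Fosb, coding for an AP-1 factor that accumulates in stimulated neurons, had 4 peaks of the class, and their values are given here after they were seen. The peak 1316 bp inside the gene (chr7:19308276-19309182) stood at 2.65 in old conditioned and 6.20 in old naive mice (-3.33, authors' FDR 0.0178), and at 3.48 in young conditioned and 6.26 in young naive mice (-2.78, FDR 0.0202). The peak 17001 bp upstream differed by -1.19 in old (FDR 0.413) and -2.80 in young mice (FDR 0.00135). The peak 9901 bp upstream differed by -1.77 (FDR 0.0751) and -1.01 (FDR 0.117), and the one 5023 bp inside by -0.78 (FDR 0.630) and 0.28 (FDR 0.807). Peaks of 1 gene thus differed in whether they were called, and they share the same libraries.

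Other early genes had 1 called peak each. In young mice these were near Jund (5792 bp upstream, -5.17, authors' FDR 3.78e-06), Tiparp, a poly-ADP-ribose polymerase gene (-4.96, FDR 2.82e-06), Nr4a2, a nuclear receptor gene (-2.52, FDR 0.0162), Klf4, a zinc finger factor gene (-1.76, FDR 0.0221) and Npas4, a neuron-specific activity-dependent factor gene (-1.72, FDR 0.0366). In old mice they were near Egr1, an early zinc finger factor gene (-1.44, FDR 0.0390) and Apold1 (-1.29, FDR 0.0343). The Apold1 peak lay 181 bp from the start of the noncoding Gm36428. Of the 15 activity effector genes, which act at synapses or as secreted signals, 4 had peaks of the class, and of their 5 peaks 0 were called in old and 1 in young mice, 255039 bp upstream of Inhba, an activin subunit gene (-2.40, FDR 0.00128).

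Genes known for several promoters, a list of 61, had peaks of the class at 35, with 64 peaks, of which 38 overlapped H3K27ac and 40 H3K27me3. Called lower were 4 in old and 14 in young mice, beside 6.09% and 18.5% of the class and 10.6% and 13.2% of all peaks, and the median difference was -0.89 and -0.59. The 3 strongest, upstream of Foxp1 and Macf1 and in Ncam1, had mean levels of 7.82, 7.70 and 7.60 and were called at neither age. The Foxp1 peak lay 86715 bp upstream of the listed coding start and 1066 bp from a RefSeq start of the same gene. Of 15 genes for H2A.Z and its machinery, 2 had a peak, both called lower in young mice: one far upstream of H2afz, the H2A.Z gene (-2.22, authors' FDR 0.0201), and one downstream of Anp32e, a chaperone gene that removes H2A.Z (-4.45, FDR 0.0392).

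Some cell-type marker genes were nearest to peaks of the class, and nearness to such a gene does not show the cell type of a peak. Of 10 markers of hippocampal neurons 6 had peaks, 10 in all, and 8 of the peaks overlapped H3K27me3. The peak 1687 bp inside Neurod2, a neuronal differentiation factor gene, differed by 0.24 in old (authors' FDR 0.736) and 1.055 in young mice (FDR 0.443). Of 7 markers of inhibitory neurons 3 had peaks (Gad1, Lhx6 and Pvalb), 4 in all with H3K27me3 at each. Of 9 oligodendrocyte markers 3 had peaks, 1 of 7 astrocyte markers (Gfap) and 1 of 6 endothelial markers (Flt1) did, and 0 of the precursor, microglia and choroid plexus markers did. A single peak near a neuronal marker was called lower in young mice, and 0 of these marker peaks were called in old mice.

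Age comparisons gave no called peak. Old conditioned against young conditioned mice differed by a median of 0.12 over the class, and 0 of 3138 peaks were called in either direction, against 0% of all peaks, with 25 (0.797%) at an unadjusted p under 0.05, while 0.554% of all peaks passed. Old naive against young naive mice differed by a median of 0.27, with 0 called, 0% of all peaks, a smallest authors' FDR of 0.209 and 243 (7.74%) at an unadjusted p under 0.05, while 12.1% of all peaks passed. In naive mice 2416 of 3138 differences were positive, and over all peaks 15925 of 20213 were. Over all peaks the median difference was 0.09 between conditioned and 0.33 between naive groups. Signs and sizes here depend on the table's scale, which carries the offset named above. The authors' test was the only one that could be read, because the table holds no value per library. These comparisons share their libraries with the training comparisons.

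RNA of the nearest genes was measured in other libraries of the same groups, with 9410843 to 13350561 counts per library. Of the 2462 genes nearest to the class, 1989 passed the filter on low counts. Their median level was 4.94 on the log2 scale of CPM (counts scaled to library size), beside 4.54 over all 14405 tested genes and 4.99 for the genes nearest to promoter peaks with H3K4me3. Of the 1989 genes, 1259 were also nearest to a promoter peak with H3K4me3 and had a median of 5.35. The 730 genes nearest to no such promoter peak had a median of 4.09, below that of all tested genes. By chromatin state, the median was 5.35 for genes nearest to peaks with H3K27ac alone, 5.27 with both marks, 4.91 with neither and 4.29 with H3K27me3 alone. The 10 markers of hippocampal neurons summed to 2081 to 2500 CPM in every library, whereas the 6 markers of the choroid plexus, with none at 0 in all libraries, summed to between 70.2 and 160.3 CPM in old conditioned, 170.0 and 1849 in old naive, 61.2 and 2207 in young conditioned and 197.3 and 3127 in young naive libraries. The part of this spread in the RNA results was not tested.

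Few of these genes were called for RNA after training, and with 3 libraries a group an uncalled gene may still have changed. In old mice, 1 of the 1989 genes was called higher, Fosb, against 0.0139% of all tested genes, and 0 were called lower. Fosb had 16.6, 17.6 and 15.8 CPM in old conditioned libraries, against 8.99, 7.24 and 7.62 CPM in old naive ones, without overlap (log2 1.06, SE 0.143, edgeR quasi-likelihood adjusted p = 0.0115). In young mice, 2 were called higher, against 0.0278% of all tested genes, and 0 lower. Fosb had 18.5, 12.7 and 15.9 CPM in young conditioned libraries, against 7.63, 6.95 and 6.20 CPM in young naive ones, without overlap (log2 1.19, SE 0.147, edgeR adjusted p = 0.00492). Btg2, an antiproliferative early gene with 3 peaks of the class, none of them called at either age, had 25.3, 21.5 and 29.1 CPM in young conditioned libraries, against 15.4, 15.6 and 13.6 CPM in young naive ones, without overlap (log2 0.76, SE 0.117, edgeR adjusted p = 0.0358). Single libraries decided these calls. The Fosb call in old mice was lost without any one of the 6 old libraries (edgeR adjusted p 0.0536 to 0.134). The Fosb call in young mice was lost without young conditioned library 73 (0.0522) or young naive library 83 (0.0733). The Btg2 call was lost without old conditioned library 61 or 65, old naive 67 or 69, young conditioned 73 or 77, or young naive 81 or 83 (0.0531 to 0.420). Their log2 differences remained positive in each of these fits. Among nearest genes not called, Fos had log2 differences of 2.08 in old and 2.03 in young mice (edgeR adjusted p = 0.112 and 0.100). Those of Egr2 were 1.98 in old and 2.41 in young mice (edgeR adjusted p = 0.690 and 0.660). Over the tested genes of the early list, the median log2 difference was 0.59 in old and 0.69 in young mice. Before adjustment, at p under 0.05, the nearest genes split into 108 higher and 81 lower in old mice, and into 70 higher and 79 lower in young mice. Of all tested genes, 3.47% were higher and 3.69% lower in old mice, and 3.45% higher and 3.18% lower in young mice. Both directions together made 9.502% of the nearest genes in old mice, beside 7.16% of all tested genes, and 7.49% in young mice, beside 6.63%. DESeq2 called 4 of them in old and 3 in young mice, beside 10 (0.0694%) and 7 (0.0486%) of all tested genes. Over the whole list of early genes, 32 of 33 of which were tested, edgeR called 2 higher in old and 4 higher in young mice, and their summed level was 1372 to 1644 CPM in old conditioned, 975.2 to 1167 in old naive, 1348 to 1581 in young conditioned and 927 to 1298 CPM in young naive libraries, without overlap at either age.

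The 2 age comparisons called few genes too. Between old and young naive mice 2 genes were called higher, against 0.0347% of all tested genes, and 0 lower, against 0.0208%. Before adjustment, 97 of the 1989 nearest genes were higher and 123 lower at p under 0.05, beside 5.0% and 5.28% of all tested genes. Both directions together made 11.1% of the nearest genes and 10.3% of all tested genes. Laptm5, a lysosomal protein gene of microglia, had 33.2, 32.2 and 34.0 CPM in old naive libraries, against 22.9, 25.05 and 21.1 CPM in young naive ones (log2 0.52, SE 0.0902, edgeR adjusted p = 0.0499). BC061194 had 2.92, 3.58 and 3.94 CPM in old naive libraries, against 1.38, 0.993 and 1.08 CPM in young naive ones (log2 1.61, SE 0.267, edgeR adjusted p = 0.0446). Between old and young conditioned mice 1 gene was called higher, against 0.0347% of all tested genes. It was again BC061194, with 4.24, 4.89 and 4.05 CPM in old conditioned libraries, against 0.980, 1.33 and 1.92 CPM in young conditioned ones (log2 1.66, SE 0.251, edgeR adjusted p = 0.0223). Before adjustment, 185 of the 1989 nearest genes were higher and 121 lower between conditioned groups at p under 0.05, beside 6.23% and 7.14% of all tested genes. More of the nearest genes were thus higher than lower, the reverse of all tested genes, and this was not tested. Both directions together made 15.4% of the nearest genes and 13.4% of all tested genes. The Laptm5 call was lost without any one library other than young naive 81 (edgeR adjusted p 0.0642 to 0.278) and with DESeq2 size factors (0.0525). The BC061194 call in naive mice was lost without any one library other than young conditioned 73 or 77 (0.0642 to 0.194). In conditioned mice it was lost without any old conditioned library, young conditioned 73 or 75, or young naive 83 (0.0510 to 0.204). DESeq2 called 19 of the nearest genes between old and young conditioned mice and 6 between old and young naive mice, beside 82 (0.569%) and 38 (0.264%) of all tested genes. Whether the training effect differed between ages was tested as an interaction. DESeq2 called it in 0 of the nearest genes, beside 1 (0.00694%) of all tested genes, and edgeR called it in 0 genes. Before adjustment, 101 of the 1989 nearest genes were higher and 52 lower in the edgeR interaction test at p under 0.05, beside 3.6% and 3.6% of all tested genes. Both directions together made 7.69% of the nearest genes and 7.20% of all tested genes. The 5 smallest unadjusted p-values in that test were those of Pitpnm3, Arhgap23, Hmgb1, Sh2b3 and Lag3, each with an edgeR adjusted p of 0.680.

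**Figure D5:**
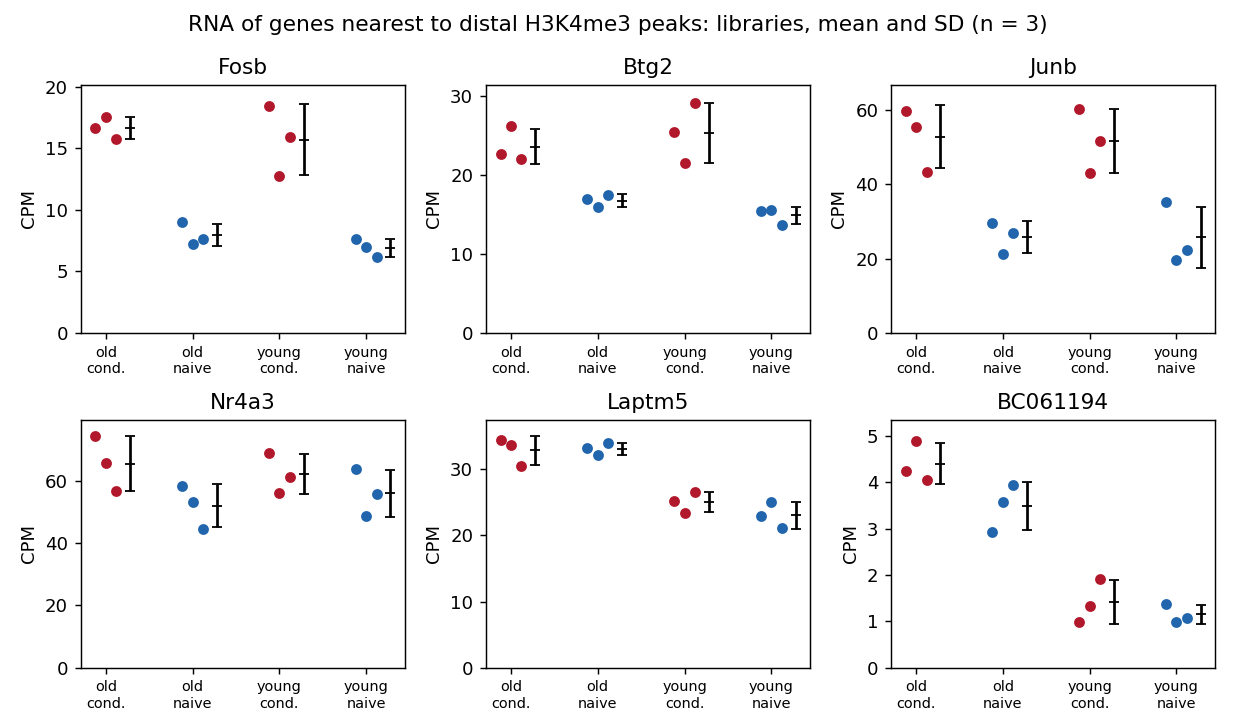
RNA level (CPM, linear axes from 0) of 6 genes nearest to distal peaks with H3K4me3, with 1 point per library and the mean and SD of the 3 libraries of a group beside the points, in conditioned (red) and naive (blue) mice. Fosb conditioned libraries lie between 12.7 and 18.5 CPM and naive ones between 6.20 and 8.99 CPM, and BC061194 and Laptm5 are higher in old than in young libraries.

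The printed and other leading peaks had nearest genes whose RNA was not called in the same comparison. E2f2 had 0.961 ± 0.152 CPM in old conditioned, 1.18 ± 0.806 in old naive, 1.54 ± 0.118 in young conditioned and 1.62 ± 0.0338 CPM in young naive libraries (SD, n = 3 each), with an edgeR adjusted p of 0.977 for training in young mice. Strbp had 380.2 ± 34.6 CPM in old conditioned and 384 ± 10.6 CPM in old naive libraries (SD, n = 3 each; edgeR adjusted p = 0.975). Pde4d had 92.7 ± 5.07 CPM in old conditioned and 91.8 ± 2.58 CPM in old naive libraries (SD, n = 3 each; edgeR adjusted p = 0.975). Gprin1 had 220.1 ± 8.22 CPM in young conditioned and 228 ± 15.1 CPM in young naive libraries (SD, n = 3 each; edgeR adjusted p = 0.896). Junb, whose peak was not called, had 52.9 ± 8.51 CPM in old conditioned and 26.0 ± 4.31 CPM in old naive libraries (SD, n = 3 each; log2 1.02, edgeR adjusted p = 0.112). Counts per gene do not separate transcripts from the annotated and from the distal start, so these values cannot show which start was used.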

How the data were processed

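H2A.Z was mapped by ChIP-seq and RNA was sequenced in the hippocampus of 4 groups of mice, 3 libraries each; the 12 input libraries were not analysed here. The authors deposited the peaks (mm10) with a log2 level for each group and a log2 fold, p-value and FDR for each pair of groups; other columns, per the file headers, give distances to genes and histone-mark regions and the number of libraries in which a peak was called. Folds were given the sign of conditioned against naive or old against young. With that sign, fold minus level difference was a constant: 0.215 (old training), -0.334 (age, naive), -0.118 (age, conditioned) and 0 (young training). Scaling and the source of the mark regions: not given in the sources used here. The authors deposited whole-number RNA counts per gene for each library.

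Per the submitters' processing notes, tools included MACS2 2.0.10, DiffBind 1.12.2 and edgeR 3.8.6, as well as HTSeq 0.6.1p2, Bowtie2 2.2.1 and Trim Galore 0.4; settings and strand: not given in the sources used here. The RNA table was fitted with edgeR 4.0.16 under R 4.3.3 (filterByExpr, TMM, 1 quasi-likelihood fit of the 4 groups, Benjamini-Hochberg adjustment over 14405 genes, prior count 2), tested on simulated data, with DESeq2 1.42.0 as an alternative. RefSeq starts and sequences (GRCm38.p6) were matched by position to peak centres with Python 3.11.15.

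Peaks were named by rule: the 10 highest mean levels, the 5 highest and 5 lowest called differences per comparison, the 3 strongest near genes of each list, and those at the distance threshold. Genes were named as those nearest to such peaks and those called in a comparison. Other peaks of the early and effector lists and those called at both ages were added after their values were seen. The peaks, lists and rules were chosen with earlier results of these data known.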

Additional observations from a re-analysis of the deposited data

How the results depend on the processing

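Counting only peaks inside an H3K4me3 region or around one left 1658 peaks, of which 94.0% had H3K4me1, 44.0% had H3K27ac and 18.1% a RefSeq start within 1 kb; 65 were called lower in old and 324 in young mice, and the median levels were 4.94 in old conditioned, 6.19 in old naive, 4.75 in young conditioned and 5.65 in young naive mice. Requiring a peak call in all 3 libraries of a group gave 51.7% with H3K27ac, 53.5% with H3K27me3, 37.2% inside the nearest gene and 25.1% at a RefSeq start, 373 called lower in young mice, and levels of 5.82, 6.97, 5.64 and 6.30 in the same order of groups. With distal set at over 2000 bp, H3K27me3 stood at 49.6% and 36.3% lay inside the gene; at over 5000 bp these were 47.3% and 34.0%, and the levels were 5.28 in old conditioned and 5.08 in young conditioned mice. At an FDR of 0.01, 29 peaks were called lower in old and 305 in young mice, and the share of all peaks at that threshold was not computed. At an FDR under 0.05, which the other counts here use, 10.6% of all peaks were called lower in old and 13.2% in young mice. These settings use the same deposited differences, so they cannot change the direction of any peak's difference.

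RNA calls among the nearest genes depended on single libraries. Leaving out 1 library at a time gave 0 to 4 training calls in old and 0 to 8 in young mice, 0 to 3 age calls in naive and 0 to 1 in conditioned mice, and 0 to 0 interaction calls; the median level was 4.89 to 4.90. Training in old mice had 0 calls without any one of the 6 old libraries and 4 without young naive library 79; training in young mice had 0 calls without young conditioned library 73 or young naive library 83, and 8 without young naive library 79. Without the filter on low counts there were 4 calls for training in old and 5 in young mice and 6 for age in naive mice, and the median level was 4.15. Calls over all genes were not counted without the filter or with a library left out, so these counts have no background. DESeq2 gave 4 training calls in old mice, and 6 age calls in naive and 19 in conditioned mice. With DESeq2 size factors, edgeR called 1 for age in naive mice. Counting a gene only where a peak lies inside it gave a median level of 4.82 and 1 training call in young mice, and age calls of 0 in naive and 0 in conditioned mice. The cause was not tested.

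No paired analysis was possible because the RNA libraries carry numbers that no other RNA library shares and the H2A.Z table holds no value per library. That also limits precision: no error can be given for an H2A.Z level, and 3 libraries a group bound every RNA test.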
